A study of Mus musculus with 20 samples.

Results

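The genes described here are 4 members of the Slc2a family, which encode facilitative glucose transporters (Slc2a1, Slc2a3, Slc2a4 and Slc2a12), and the 4 Pfkfb genes (Pfkfb1 to Pfkfb4). They were picked by gene symbol from the platform annotation, with earlier results of these data known. Of the 8 genes, 7 had at least 1 probe set named for them, out of 18193 genes named on the array, and together these 7 had 18 probe sets. Pfkfb1 was not analysed here. The old group held 10 C57BL/6J male mice aged 25 to 28 months and the young group 10 C57BL/6J male mice aged 4 to 6 months, an inbred strain with no transgene or drug named in the labels. Total RNA from the cardiac ventricle of each mouse was read on 1 Affymetrix MOE430 2.0 array, and every value below is a GCRMA signal on a log2 scale, on which a difference of 1 is a doubling.

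Glucose enters a heart muscle cell through carriers of the Slc2a family. Slc2a1 (GLUT1) is the carrier of basal uptake, abundant in the fetal heart and in endothelium. Slc2a4 (GLUT4) is the main carrier of the adult heart and is stored in vesicles that insulin and contraction send to the cell surface. Slc2a12 (GLUT12) is also insulin-responsive in muscle, and Slc2a3 (GLUT3) is a high-affinity carrier best known from neurons, platelets and white blood cells. The Pfkfb genes encode 6-phosphofructo-2-kinase/fructose-2,6-bisphosphatases, enzymes that make and remove fructose 2,6-bisphosphate, the most potent activator of phosphofructokinase-1 in glycolysis. Pfkfb2 encodes the heart isoform, which insulin and AMP-activated protein kinase signalling activate by phosphorylation, Pfkfb3 the inducible isoform, Pfkfb1 the liver and skeletal muscle isoform and Pfkfb4 the testis isoform.

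Slc2a1 and Pfkfb3 are textbook targets of hypoxia-inducible factors, and Pfkfb2, the member with the smallest p, is set beside them. The bases before a listed start of each of these 3 genes are therefore shown. Each window holds the 250 bases before the first start that the RefSeq promoter table (GRCm38.p6) lists for the gene, 5′ to 3′ on the gene's strand; the table lists 1 start for Slc2a1, 3 for Pfkfb2 and 2 for Pfkfb3. Capitals mark ACGTG and GCGTG, the core letters of a hypoxia response element, read on both strands. The windows lie at chr4:119108495-119108744 (plus strand) for Slc2a1, chr1:130715822-130716071 (minus strand) for Pfkfb2 and chr2:11553930-11554179 (minus strand) for Pfkfb3. The Pfkfb2 window lies inside the gene span given below, and the Pfkfb3 window overlaps the end of its span.
Slc2a1: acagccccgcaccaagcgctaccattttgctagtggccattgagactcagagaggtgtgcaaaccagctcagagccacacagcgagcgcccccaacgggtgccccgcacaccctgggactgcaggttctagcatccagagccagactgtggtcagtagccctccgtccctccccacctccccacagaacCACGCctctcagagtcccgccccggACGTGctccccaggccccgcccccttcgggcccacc
Pfkfb2: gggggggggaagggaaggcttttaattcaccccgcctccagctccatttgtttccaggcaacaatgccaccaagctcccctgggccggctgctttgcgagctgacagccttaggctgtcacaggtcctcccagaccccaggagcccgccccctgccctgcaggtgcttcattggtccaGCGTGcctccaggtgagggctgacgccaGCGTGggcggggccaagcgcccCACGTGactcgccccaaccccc
Pfkfb3: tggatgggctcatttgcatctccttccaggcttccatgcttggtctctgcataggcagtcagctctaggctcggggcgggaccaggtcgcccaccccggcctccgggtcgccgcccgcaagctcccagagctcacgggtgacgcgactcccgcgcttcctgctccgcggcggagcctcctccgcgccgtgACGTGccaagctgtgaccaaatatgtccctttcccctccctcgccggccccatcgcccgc
ACGTG or GCGTG occurred in 38.6% of the 32851 windows of the table, ACGTG in 16.6% and GCGTG in 28.2%. Slc2a1 held 1 of each, Pfkfb3 held 1 ACGTG, and Pfkfb2 held 2 GCGTG and, near its start, ACGTG on both strands in overlap, printed as 6 capitals. Among windows not printed, that of the second Pfkfb3 start held 1 GCGTG and ACGTG on both strands in overlap. The second Pfkfb2 start had 1 GCGTG and the third 1 ACGTG. The window of Pfkfb4 held 1 GCGTG, and in the window of Slc2a12 neither was found. The letters describe the windows, and no binding was measured.

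The array set was checked before the comparisons. Array medians ran from 3.07 to 3.20, and no arrays held identical values. Of 8 ventricular heart muscle markers, all were tested and 1 differed, and their summed signal had log2 values of 17.76 to 17.97 in old and 17.82 to 17.99 in young arrays. Atrial transcripts stood out in old mice: Myl7, the atrial regulatory myosin light chain, ran from 2.36 to 14.6 in old arrays and from 2.38 to 2.44 in young arrays, and it exceeded 10 in 7 old arrays. Of the other 3 old arrays, replicate 2 (8.27) and replicate 7 (6.58) also lay above every young array, and replicate 1 (2.36) did not. Clustering of the deviations from the age group means placed the arrays in 5 sets of 4, each with 2 old and 2 young arrays; the labels name no batch. Results are therefore also given without the 7 old arrays, with an atrial index as a covariate, and within the sets. The index is the mean of the linear Myl7 and Sln signals, each relative to its maximum. It was at most 0.00028 in young arrays and reached 1 in old replicate 10. Since it varied almost only among old arrays, atrial content and age cannot be fully told apart in fits with it. P-values that use the sets are somewhat too small, since the sets were found from these same arrays. In whole ventricle, fewer cells of a type and less RNA per cell cannot be told apart.

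A gene was tested when a probe set exceeded a log2 value of 4 in at least 10 of the 20 arrays, and it was then represented by its brightest such probe set. Of the 8 listed genes 5 were tested, namely Slc2a1, Slc2a4, Slc2a12, Pfkfb2 and Pfkfb3, and each exceeded 4 in at least 18 arrays. Slc2a3 exceeded 4 in 9 arrays and Pfkfb4 in 0, so neither entered the fit. With limma over 9275 genes, and an adjusted p under 0.05 as the threshold, 1 of the 5 rose (Slc2a1) and 2 fell (Slc2a4 and Pfkfb2) in old ventricle, against a background of 11.2% of all genes higher and 7.49% lower. Slc2a12 (lower estimate) and Pfkfb3 (higher estimate) did not pass. The signal of a probe set depends on its own sequence, so levels are compared between mice and never between genes.

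**Figure D1:**
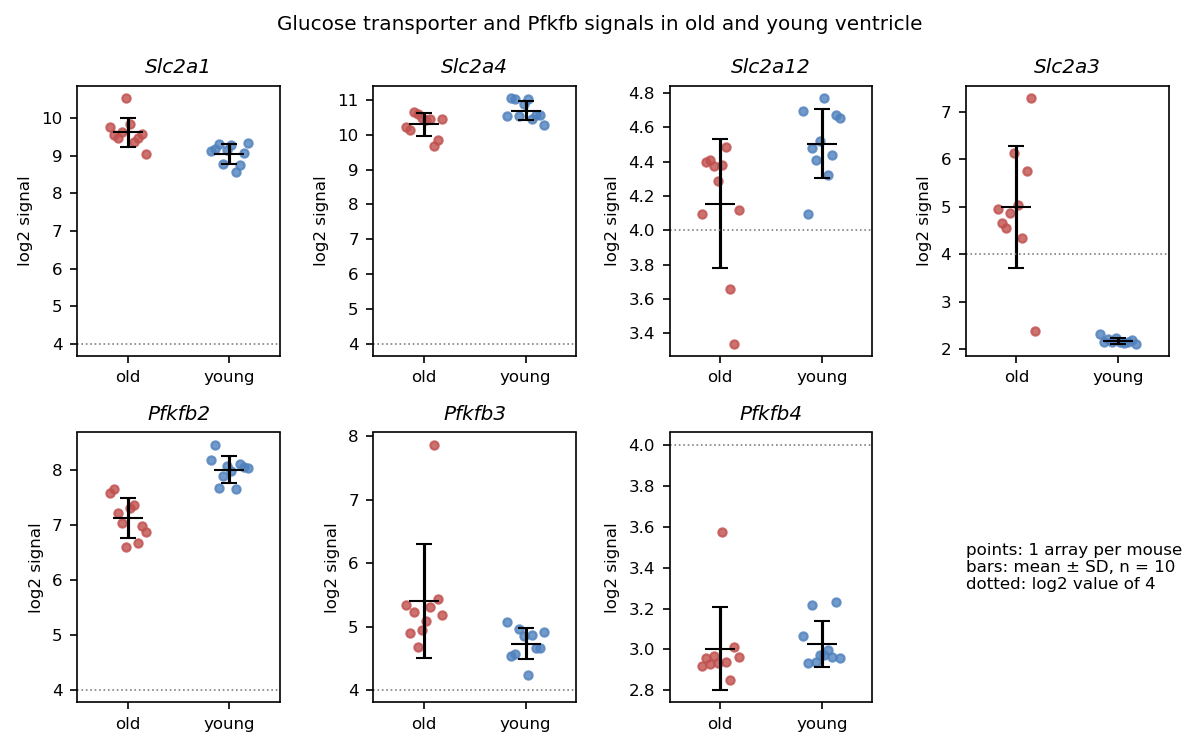
GCRMA log2 signal (vertical axis, its range differing between panels) of the brightest probe set of each of the 7 genes in old and young ventricle, 1 point per mouse, with mean ± SD over 10 mice per group and a dotted line at 4. Pfkfb2 is lower in nearly all old arrays, Slc2a1 higher in 9 of 10, and Slc2a3 sits at 2.11 to 2.32 in young arrays and above 4 in 9 old arrays.

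Slc2a1 (chr4:119108745-119137330 in GRCm38.p6), the basal carrier, was higher in old ventricle. Its brightest probe set read 9.06 at the lowest, 9.57 at the median and 10.53 at the highest in old arrays, against 8.57, 9.14 and 9.34 in young arrays. Of the 10 old arrays 9 lay above every young array, and old replicate 10 (9.06) was the exception. The difference was 0.57 ± 0.14 (SE), which is 1.48-fold (limma adjusted p = 0.0078). It was positive in each of the 5 array sets, between 0.31 and 0.97. A second probe set had a difference of 0.69 ± 0.18 (SE; adjusted p = 0.0249 in a limma fit over all 34945 single-gene probe sets, of which 23.3% passed), and the dimmest one 0.52 ± 0.24 (SE; adjusted p of 0.108 there). Without the 7 old arrays with Myl7 above 10 the estimate was 0.49 (adjusted p = 0.137 with 3 old arrays left), and with the atrial index as a covariate 0.62 (adjusted p = 0.0754).

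Endothelium is rich in Slc2a1, and its markers were read in the same arrays. Of 9 endothelial markers tested, 2 rose and 1 fell, beside 11.2% and 7.49% of all genes. Their summed log2 signal was 11.5 to 12.4 in old arrays and 11.3 to 11.7 in young arrays. Old replicate 5, the array highest for Slc2a1 at 10.53, was at 12.42 for this list. Old replicates 9 (12.36) and 6 (12.34) came close to it for the list, with Slc2a1 at 9.59 and 9.85. None of the 9 markers was at or below 4 in all arrays of a group. Their part in the Slc2a1 difference was not tested.

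Slc2a4 (chr11:69942286-69948216), the insulin-regulated carrier, was lower in old ventricle, close to the threshold. The old arrays read 9.67, 10.44 and 10.66 at the lowest, median and highest, against 10.27, 10.57 and 11.05 in young arrays. The groups overlapped widely: 4 of 10 old arrays lay below every young array, and all 10 lay below the young mean of 10.69. Slc2a4 fell by 0.40 ± 0.13 on the log2 scale (SE), to 0.76 of the young level (limma adjusted p = 0.0398). The estimate was negative in all 5 array sets, between -0.23 and -0.51, and with the sets as a block the adjusted p was 0.00292. The call did not hold in 8 of 20 fits that left out 1 array, those without old replicate 1, 2, 8 or 9 or young replicate 12, 13, 15 or 16, with estimates over all 20 such fits of -0.44 to -0.33 and adjusted p of up to 0.0733. It was also lost without the 7 old arrays (-0.42, adjusted p = 0.215), with the atrial index (-0.36, adjusted p = 0.277), after median centring (-0.36, adjusted p = 0.0618) and when the gene's 2 probe sets were averaged (-0.36, adjusted p = 0.217). The second probe set varied more between mice, with 9.47 ± 0.67 in old arrays and 9.80 ± 0.65 in young arrays (SD over 10 mice per group). Its difference was -0.33 ± 0.29 (SE; adjusted p = 0.405 in the limma fit over all probe sets), with 1 old array below every young one.

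The difference between the brightest Slc2a1 and Slc2a4 probe sets within an array is free of any shift common to the array. It was -0.67 ± 0.47 in old arrays and -1.63 ± 0.29 in young arrays (SD over 10 mice per group), higher by 0.96 ± 0.17 (SE) in old arrays. A permutation test, two-sided with 100000 resamples, gave p = 0.00014, or 0.00028 adjusted over the 2 contrasts computed. The sign within a group has no meaning, since the probe sets differ in response; the shift between ages does. Old arrays ran from -1.39 to 0.04 and young arrays from -1.89 to -0.94, and 6 of 10 old arrays lay above every young array. Young replicate 20 (-0.94) was the young array nearest to the old ones. Without the 7 old arrays the shift was 0.92, with an exact permutation p of 0.00699 where the 3 remaining old arrays allow none below 0.0035. With the atrial index it was 0.98 (permutation p = 0.00061). Permutation within array sets gave p = 0.000257, the smallest two-sided value that its 7776 arrangements allow. The sets were found from these same arrays, which makes that p somewhat too small.

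**Figure D2:**
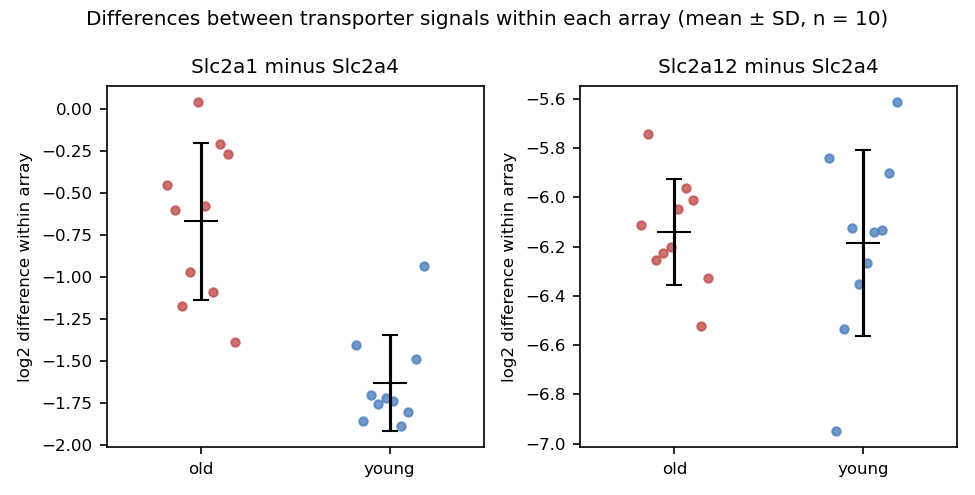
Difference of log2 signals within each array (vertical axis) for Slc2a1 minus Slc2a4 and Slc2a12 minus Slc2a4 in old and young ventricle, 1 point per mouse with mean ± SD over 10 mice per group. The Slc2a1 minus Slc2a4 values lie at -0.67 ± 0.47 in old and -1.63 ± 0.29 in young arrays, while the Slc2a12 minus Slc2a4 values overlap.

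Slc2a12 (chr10:22644990-22703880), the other insulin-responsive carrier, was read just above the level of undetected transcripts. Old arrays were at 3.34, 4.33 and 4.49 (lowest, median, highest), against 4.10, 4.50 and 4.77 in young arrays. Old replicates 8 and 9, the only arrays under 4, lay below every young array, and the other 8 old arrays lay within the young range. The estimate was -0.35 ± 0.13 (SE; limma adjusted p = 0.0683), not past the threshold. It passed after quantile normalization (-0.45, adjusted p = 0.0192) and with the array sets as a block (-0.35, adjusted p = 0.0311), although 1 of the 5 sets had an estimate above 0 (0.10). It also passed without old replicate 7 (adjusted p = 0.0483) or young replicate 12 (adjusted p = 0.0441). Without the 7 old arrays it was -0.18 (adjusted p = 0.566), and with the atrial index -0.18 (adjusted p = 0.617). No difference from the age difference of Slc2a4 was detected: the Slc2a12 minus Slc2a4 signal was -6.14 ± 0.22 in old and -6.19 ± 0.38 in young arrays (SD over 10 mice per group), a shift of 0.05 ± 0.14 (SE; permutation p = 0.752). The second Slc2a12 probe set was at 1.95 to 2.11 in old and 1.99 to 2.05 in young arrays, below 4 throughout. The name of the brightest one ends in _s_at, which marks probe sets whose probes can match more than 1 transcript.

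Slc2a3 (chr6:122727809-122802363) was near the bottom of the scale in every young ventricle and above it in 9 of 10 old ventricles. Its brightest probe set read 2.37 at the lowest, 4.91 at the median and 7.29 at the highest in old arrays, against 2.11, 2.15 and 2.32 in young arrays. All 10 old arrays lay above all young ones, but old replicate 10 (2.37) by a small margin, while the other 9 were between 4.35 and 7.29. Such a separation was found in 1.36% of the 9275 tested genes, which leave out Slc2a3, and its share over all probe sets was not computed. The limma adjusted p was 0.000272 in the fit over all probe sets. Since the young values sit at the level of undetected transcripts, no size of the difference is given. Of the 34945 single-gene probe sets, 31 (0.0887%) exceeded 4 in at least 9 old arrays and in 0 young ones. That cut matches the counts of this probe set, so the share is a description and no test. A second probe set exceeded 4 in 4 old and 0 young arrays, with old values up to 6.79, whereas the third (2.42 to 2.52 in old, 2.47 to 2.57 in young) and the fourth (2.09 to 2.68 in old, 2.11 to 2.15 in young) stayed near the bottom in both groups. The names of the first and second end in _s_at and _x_at, which mark probe sets whose probes can match more than 1 transcript.

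Slc2a3 ran from 2.37 to 7.29 (mean 5.14) in the 7 old arrays with Myl7 above 10 and from 4.35 to 4.94 (mean 4.65) in the other 3 old arrays, so the ranges overlapped. Both extremes lay among the 7, in old replicate 10 (2.37, Myl7 14.6) and old replicate 9 (7.29, Myl7 14.3).

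Blood cell markers were read in the same arrays. The 8 platelet markers had a summed log2 signal of 9.66 to 13.74 in old arrays and 8.25 to 9.20 in young arrays; Clec1b, Gp5, Gp9, Itga2b and Treml1 were at or below 4 in every young array. Old replicate 9 was highest for both Slc2a3 (7.29) and the platelet list (13.74), and old replicate 10 lowest among old arrays for both (2.37 and 9.66). Old replicate 5, next highest for Slc2a3 (6.14), was at 10.64 for the platelet list, below old replicates 1 (10.98) and 8 (11.28). The red cell list, with 4 markers on the array, had the same extremes among old arrays, 14.1 in replicate 9 and 8.43 in replicate 10. Young arrays were at 7.78 to 9.002 for that list. Epb42 was at or below 4 in every young array, and Hba-a1 in every array of both groups. Of 3 neutrophil markers tested 2 rose (summed signal 7.89 to 11.03 in old, highest in replicate 5, and 5.94 to 9.89 in young), while Camp, Elane, Mpo and Ngp were at or below 4 in every array. Of 11 macrophage markers tested 8 rose (12.2 to 13.2 in old, highest in replicate 9, with 12.7 in replicate 10, and 11.5 to 12.2 in young). The part of these cells in the Slc2a3 signal was not tested.

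**Figure D3:**
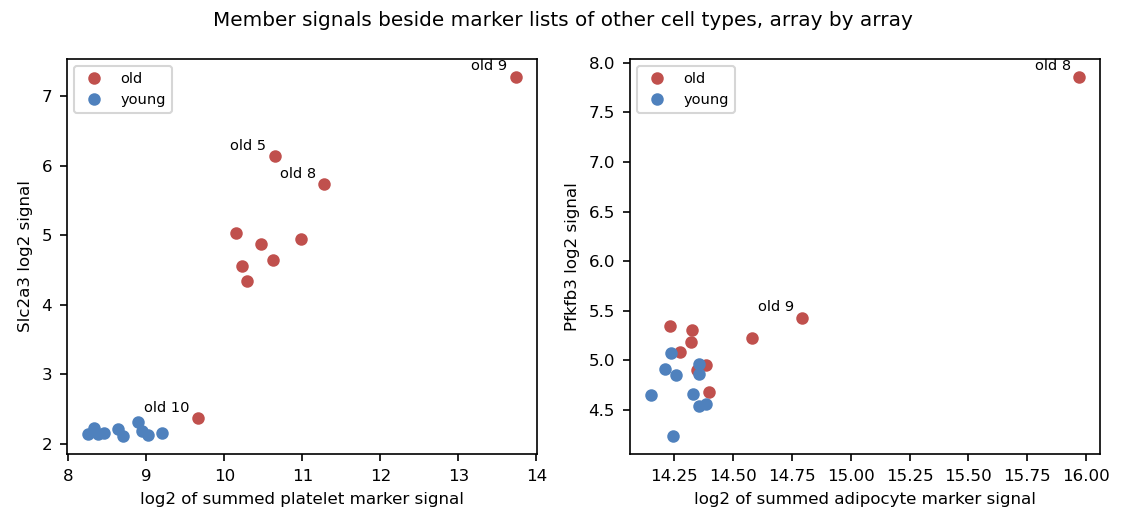
Left, Slc2a3 log2 signal (brightest probe set, vertical axis) against the log2 of the summed signal of 8 platelet markers, 1 point per mouse; right, Pfkfb3 log2 signal against the log2 of the summed signal of 6 adipocyte markers. Old replicate 9 is highest and old replicate 10 lowest among old arrays on both left-hand axes, and old replicate 8 stands apart on both right-hand axes.

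Pfkfb2 (chr1:130689043-130729253), the heart isoform of the bifunctional enzyme, had the largest fall among the tested members. Its brightest probe set read 6.60, 7.13 and 7.65 (lowest, median, highest) in old arrays, against 7.65, 8.05 and 8.46 in young arrays. Of 10 old arrays 9 lay below every young array, and old replicate 2 (7.655) exceeded only the lowest young array (7.647). Pfkfb2 fell by 0.88 ± 0.13 on the log2 scale (SE), to 0.54 of the young level (limma adjusted p = 8.67e-05), and it ranked 120 by p among the 9275 genes. The fall was seen in all 5 array sets, from -0.49 to -1.08, and no fit that left out 1 array lost it (-0.94 to -0.82, adjusted p of at most 0.00025).

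The difference read by this probe set was smaller in both atrial settings. The 7 old arrays with Myl7 above 10 were at 6.60 to 7.31 and the 3 other old arrays at 7.36 to 7.65. The share of all genes with ranges apart in this way was not computed. Among the 7, the extremes were old replicate 6 (7.31, atrial index 0.86) and old replicate 5 (6.60, atrial index 0.40). Without the 7 arrays the estimate was -0.48 (limma adjusted p = 0.115), and with the atrial index it was -0.64 (adjusted p = 0.0251). A pair of further probe sets had estimates of the same sign. The second was at 5.67 ± 0.69 in old arrays and 6.61 ± 0.92 in young arrays (limma adjusted p = 0.0571 in the fit over all probe sets), and the third at 4.19 ± 0.45 in old arrays and 4.70 ± 0.40 in young arrays (adjusted p = 0.0533 there), each with its SD over 10 mice per group. The values of the second followed the array sets, with young means of 5.29 to 7.49 by set, and its difference was negative in each of them (-0.49 to -1.56). This second probe set averaged 5.63 in the 7 old arrays and 5.77 in the other 3, with a difference of -0.84 without the 7 against -0.94 over all arrays. The fourth probe set was below 4 in every array.

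Pfkfb3 (chr2:11471430-11554071), the inducible isoform, had a higher estimate that 1 old array dominated. Old arrays read 4.68, 5.21 and 7.86 (lowest, median, highest), against 4.24, 4.76 and 5.08 in young arrays, and 7 of 10 old arrays lay above every young one. The difference was 0.66 ± 0.27 (SE; limma adjusted p = 0.0896) and did not pass. Without old replicate 8, the array at 7.86, it was 0.39 and passed (adjusted p = 0.0218). The array sets gave 0.13 to 1.92, all positive, the highest being the set that holds old replicate 8. Its second probe set was at 3.24 ± 0.34 in old arrays and 3.35 ± 0.29 in young arrays (SD over 10 mice per group), and its single value above 4 was also that of old replicate 8 (4.18).

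Old replicate 8 also carried the highest adipocyte signal. The summed log2 signal of the 6 adipocyte markers on the array was 15.97 there and 14.2 to 14.8 in the other old arrays, against 14.2 to 14.4 in young arrays. Of the 2 adipocyte markers tested 1 rose; Adipoq, Cidec, Lep and Retn were at or below 4 in every young array, and Lep in every old array too. The part of fat cells in the Pfkfb3 value of that array was not tested. Pfkfb4 (chr9:108988272-109032236), the testis isoform, was at 2.85 to 3.57 in old arrays and 2.93 to 3.23 in young arrays, below 4 throughout; its highest value was that of old replicate 6.

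**Figure D4:**
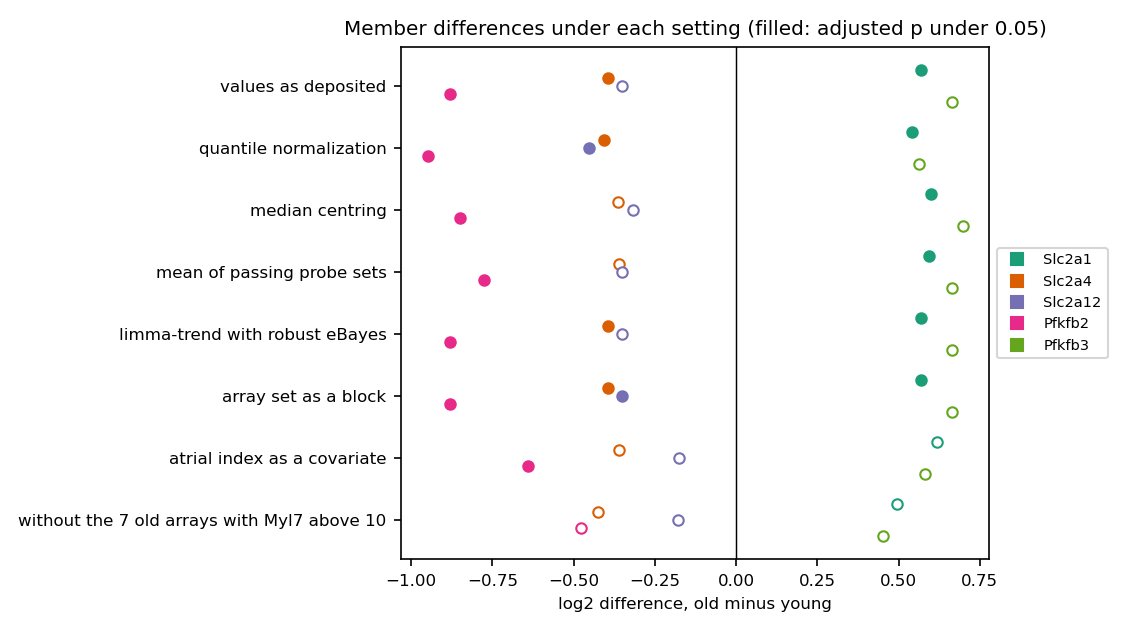
Log2 difference, old minus young (horizontal axis), of the 5 tested members under 8 settings (rows); filled symbols have a limma adjusted p under 0.05. No estimate crosses 0, and when the 7 old arrays of highest Myl7 are left out none of the 5 passes.

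The number of members that passed is read against the share of all genes that passed in the same setting. It was 4 of 5 after quantile normalization (background 20.1%), 2 after median centring (18%), 4 with the array sets as a block (36.1%), 0 without the 7 arrays (2.93%) and 1 with the atrial index (3.74%). Leaving out the filter gave 4 of 7, Slc2a3 being the addition (23.9%), a filter at 6, which Slc2a12 and Pfkfb3 did not pass, gave 3 of 3 (19.6%), averaged probe sets 2 of 5 (17.9%) and limma-trend with robust moderation 3 of 5 (18.9%).

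Genes whose deviations from the age group mean were most like those of each member over the 20 arrays were named as a description. The 20 arrays fall into the 5 sets described above, which were themselves found from such deviations. For Slc2a4 they were Myadml2 (Pearson r = 0.95) and Coq10a (0.94), for Slc2a1 Litaf (0.86) and Ube2d3 (0.86), and for Slc2a12 Pstpip2 (0.86) and Rflnb (0.85). For Pfkfb2 they were Mttp (0.81) and Gbp6 (0.79), and for Pfkfb3 D17H6S56E-5 (0.95) and Tkt (0.94), a transketolase of the pentose phosphate pathway. The values for Pfkfb3 include old replicate 8 (7.86).

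Around the members, 127 genes of 9 lists on glucose use were followed, of which 96 were tested. Of these, 11 rose and 9 fell. Among all genes 11.2% rose and 7.49% fell, or 18.7% in either direction, and the counts of each list below are read against these shares. Without the 7 old arrays 2 of the 96 passed (Pik3r1 and Phka1, both higher), against 2.93% of all genes, and with the atrial index 4 passed (Pgam1, Pik3r1 and Phka1, higher, and Pdk4, lower), against 3.74%. The calls below are those over all 20 arrays.

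Among the enzymes of glucose phosphorylation and glycolysis, 4 of 15 tested rose and 2 fell, with a median difference of 0.01, the same as over all genes (0.01). Pgam1, the brain-type phosphoglycerate mutase, was at 9.56 ± 0.26 in old arrays and 8.75 ± 0.22 in young arrays (SD over 10 mice per group; limma adjusted p = 2.65e-05), with all 10 old arrays above every young one, a separation found in 1.36% of genes. Hk1, a hexokinase, rose by 0.62 and Ldha, a lactate dehydrogenase subunit, by 0.37. Without the 7 old arrays Pgam1 was at 0.49 (adjusted p = 0.0839), Hk1 at 0.34 (adjusted p = 0.388) and Ldha at 0.23 (adjusted p = 0.335). Eno3, the muscle enolase, fell by 0.38, with 9 of 10 old arrays below every young one. Of the enzymes that oppose phosphofructokinase-1 or its activator, Fbp2, the muscle fructose bisphosphatase, fell by 0.63 (adjusted p = 0.0123; -0.02 without the 7 arrays), and Tigar, which can degrade fructose 2,6-bisphosphate, was at -0.28 (adjusted p = 0.248). Of the other glucose carriers, 2 of 9 were tested. Slc5a2, a sodium-coupled carrier best known from kidney, fell by 0.52 (adjusted p = 0.0101), and Slc2a8 was at -0.10 (adjusted p = 0.543).

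The machinery that delivers Slc2a4 to the surface had 3 of 17 tested genes higher and 0 lower, beside 11.2% and 7.49% of all genes. These were Tbc1d1, a GTPase-activating protein for Rab proteins (1.62), Sort1, the sorting receptor sortilin (0.80), and Myo1c, an unconventional myosin motor (0.51); Cltc, the clathrin heavy chain, was at 0.32 (adjusted p = 0.0604). Without the 7 old arrays Tbc1d1 was at 0.07, Myo1c at 0.18 and Sort1 at -0.14, a sign opposite to that over all arrays, and none passed (adjusted p of 0.637 to 0.924). In insulin signalling, 1 of 13 tested genes rose and 1 fell. Irs1, the insulin receptor substrate, fell by 0.52 (adjusted p = 0.0432; 0.01 without the 7 arrays), and Pik3r1, the regulatory subunit of phosphatidylinositol 3-kinase, rose by 0.37 (adjusted p = 0.0209). Ptpn1, a phosphatase of the insulin receptor, was at 0.42 (adjusted p = 0.0569) and Pdpk1, the kinase upstream of Akt, at 0.40 (adjusted p = 0.0794).

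AMP-activated protein kinase promotes glucose uptake under energy stress, and 8 genes of its subunits and upstream kinases were tested. The subunit gene Prkag2 rose by 0.98 and the subunit gene Prkab2 fell by 0.41. The upstream kinases Camkk2 (0.49, adjusted p = 0.232) and Stk11 (0.14, adjusted p = 0.283) did not pass. Without the 7 arrays Prkag2 was at 0.10 (adjusted p = 0.803) and Prkab2 at -0.36 (adjusted p = 0.348). Of 15 tested glycogen genes, Phka1, a phosphorylase kinase subunit of muscle, rose by 0.90 and Phkb, another subunit of that kinase, fell by 0.40 (-0.07 without the 7 arrays). Pgm1 was at -0.28 (adjusted p = 0.099) and Pygl at 0.64 (adjusted p = 0.225). Of 16 tested regulators, Srebf1, a lipogenic transcription factor gene, rose by 0.90 (0.26 without the 7 arrays), and Mlxipl, which encodes a glucose-responsive factor (-0.34, adjusted p = 0.0712), Txnip, an inhibitor of glucose uptake (-0.45, adjusted p = 0.0736), and Ppargc1a (-0.37, adjusted p = 0.155) did not pass. For pyruvate entry into mitochondria, 2 of 8 tested fell and 0 rose, beside 7.49% and 11.2% of all genes. Pdk4, a kinase that shuts off pyruvate dehydrogenase, was at 11.19 ± 0.86 in old arrays and 12.10 ± 0.57 in young arrays (SD over 10 mice per group; adjusted p = 0.0368), and Pdhb, a subunit of that dehydrogenase, fell by 0.32 (-0.11 without the 7 arrays). Pdk2 was at -0.50 (adjusted p = 0.0971) and Pdp1, the phosphatase that opposes the kinases, at -0.28 (adjusted p = 0.101). With the array sets as a block, where 36.1% of all genes passed, 8 of the named genes that had not passed did so: Ptpn1 and Pdpk1 of insulin signalling, Cltc, Pgm1, Txnip, Ppargc1a, Pdk2 and Pdp1.

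**Figure D5:**
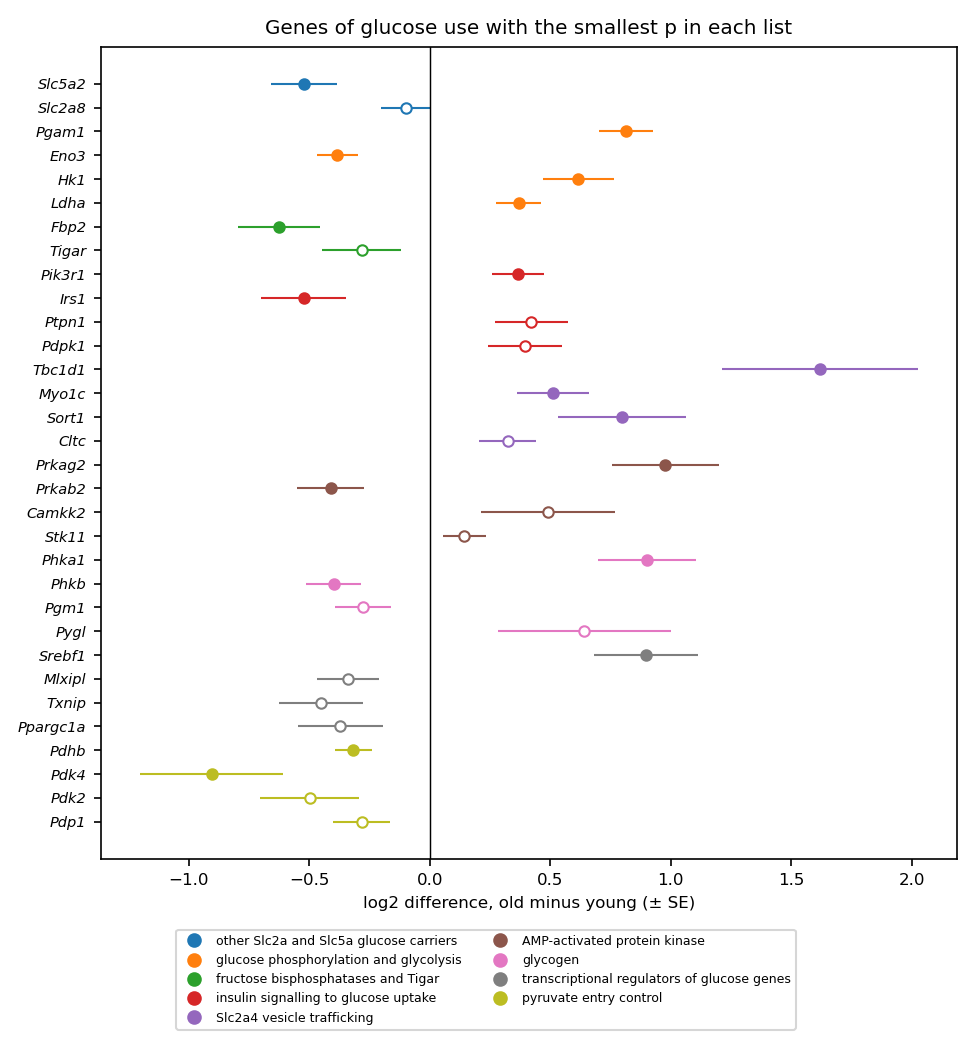
Log2 difference, old minus young, with its standard error (horizontal axis), of the up to 4 genes with the smallest p in each of 9 lists on glucose use (rows, coloured by list); filled symbols have a limma adjusted p under 0.05. Tbc1d1 has the highest estimate (1.62) and Pdk4 the lowest (-0.91).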

How the data were processed

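RNA of 20 ventricles, 1 mouse per array, was measured on Affymetrix MOE430 2.0 arrays. The deposited table holds 1 log2 value per probe set and array, made by the authors with GCRMA per the submitters' processing notes; the sources used here give neither the GCRMA version nor the base of the logarithm, and log2 was read from the values (0.98 to 16.0). Such values compress differences of undetected transcripts. The groups come from the sample titles; the series' design text calls both ages young, read as a slip. Of 45101 probe sets, 34945 had 1 gene, named by the platform annotation and updated by gene identifier to RefSeq (GRCm38.p6). The others were left out.

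Old and young were compared with limma 3.58.1 (R 4.3.3; lmFit and eBayes, no covariate) with Benjamini-Hochberg adjustment over all 9275 genes passing the filter, and each adjusted p comes from it unless another test is named. Single contrasts used two-sided permutation tests (Python 3.11.15). The planned Pfkfb1 minus Pfkfb2 contrast was not computed, since Pfkfb1 was not analysed here. The atrial index averages Myl7 and Sln, each as linear signal divided by its maximum over arrays. The array sets were found by clustering (average linkage) the deviations of tested genes and make blocked p-values somewhat too small. Alternatives were 2 scalings, 2 filters, averaged probe sets, limma-trend, the atrial settings, the sets and each array left out. The scaling, atrial, set and left-out settings kept the main choice of probe sets. On simulated data of 9275 genes the fit called 96 of 100 genes changed by 1 on the log2 scale and 51 of 100 changed by 0.5, with 10 false calls. The simulated noise was independent between genes and arrays. It held neither the array sets nor the atrial transcripts, so these counts may not hold for the real arrays. The number of arrays limits precision. The named genes are the members, up to 4 genes of smallest p per list and the 2 most alike per member. Members and lists were chosen with earlier results of these data known.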

Additional observations from a re-analysis of the deposited data

Results flagged for a closer look

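Single arrays stood apart from their group in 14 of 104 groups examined, where chance gives about 1 in 20. Old replicate 8 was high for both Pfkfb3 probe sets (7.86 and 4.18) and for Pygl (9.98), and low for Prkab2 (7.06). This array also had the highest adipocyte marker signal. Old replicate 6 was high for Pfkfb4 (3.57), for the fourth Pfkfb2 probe set (3.44) and for the fourth Slc2a3 probe set (2.68), all below 4. Other values below 4 were those of the second Slc2a12 probe set in old replicate 10 (2.11) and young replicate 20 (2.05), and of Slc2a3 in young replicate 11 (2.32, brightest probe set) and young replicate 15 (2.57, the third probe set). Young replicate 20 was high for Slc2a1 minus Slc2a4 (-0.94), old replicate 5 for Ldha (13.21), and young replicate 13 was low for Pdhb (13.19).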

How the results depend on the processing

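The members' estimates kept their sign under all settings tried. Of the 5 tested members, 3 passed with the values as deposited, 0 without the 7 old arrays with Myl7 above 10, 1 with the atrial index (Pfkfb2), and between 2 and 4 when 1 array was left out. Over all genes 1732 passed, against 272 without the 7 arrays, 347 with the index, 3344 with the sets as a block and 4345 without the filter (18193 genes tested). Of the genes on glucose use 20 passed, against 2, 4 and 39 in the first 3 of these settings. With 3 old arrays left, fewer samples enter the fit. Of all calls 59.9% were higher in old as deposited, 43.3% after quantile normalization and 68.6% after median centring.

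The shift of Slc2a1 minus Slc2a4 passed after quantile normalization and in the atrial, set and left-out settings (0.88 to 1.04 with 1 array left out). Median centring cannot change a difference within an array and is no check of it. In the other settings the shift of Slc2a1 minus Slc2a4 was not computed. The shift of Slc2a12 minus Slc2a4, never past the threshold, turned to -0.046 after quantile normalization and ran from -0.040 (without young replicate 12) to 0.11 with 1 array left out. Without the 7 arrays the sign also turned for Slc2a8 (0.042), Tigar (0.11), Irs1 (0.0078), Sort1 (-0.14), Stk11 (-0.0084), Ppargc1a (0.082) and Pdp1 (0.0094), and with the index for Sort1 (-0.084). The causes were not tested. A Slc2a3 test added after its values were seen is not used, since the groups do not overlap. No paired analysis was possible because the groups share no replicate number.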
